A study of Mus musculus with 31 samples.

Results

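Saline instillation into the trachea was compared with no instillation in the lung of AKR mice, an inbred strain long used in leukaemia research. The comparison used 5 of the 31 gene expression arrays of the study: 3 arrays of mice that breathed room air and then received normal saline into the trachea, against 2 arrays of mice that breathed room air with no instillation. All 5 are titled with 3 weeks of exposure, and all mice are labelled male, AKR and 6 weeks of age. The arrays were chosen by these titles and by no measured value. The design text of the study, however, assigns 6 weeks of exposure to mice with an instillation and 3 weeks to mice without, so exposure may differ in length between the groups. The volume of saline and the time between instillation and tissue collection are not given in the sources used here. Each array held labelled RNA of homogenised lung and is called a biological replicate; how many mice went into each is not stated.

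Saline given through the trachea is the usual vehicle control in models of acute lung injury, in which endotoxin is dissolved in it. An instilled mouse has had fluid placed in its airways and has been handled for that purpose. The genes described first are the chaperones of the heat shock response, which keep proteins folded and which the transcription factor Hsf1 switches on. Genes of the leukocytes that reside in the lung or are held in its small vessels follow. RNA of whole lung holds all of these cell types, so fewer cells of a type and less RNA per cell cannot be told apart.

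Each value is a log2 intensity of 1 probe set. A log2 difference of 1 is a doubling of intensity, differences are saline minus room air, and an error after ± is the standard error of the difference from the model. Values are given in the order of the replicate numbers, saline first. The 5 arrays held lung RNA: Sftpc, the surfactant protein of alveolar type 2 cells, lay between 13.4 and 13.8 on them, and Ager, a marker of alveolar type 1 cells, between 11.5 and 12.6. The study's arrays fell into 2 sets of different distribution, 13 AKR arrays with medians from 6.80 to 6.90, which include all 5 compared here, and 18 with medians from 6.96 to 7.10. Every C57 array is in the second set, together with 3 AKR arrays of room air titled 6 weeks. Over all tested genes the 3 saline arrays correlated with each other at 0.955 to 0.984 and the 2 room air arrays at 0.989. Saline replicates 1 and 2 each correlated with room air replicate 1 at 0.983. That was higher than their correlations with saline replicate 3, 0.977 and 0.955, so the arrays did not group by treatment on this measure. The lowest correlation of any pair was 0.928, between saline replicate 3 and room air replicate 2.

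The lungs also differed in content between arrays of one group. The 13 tested genes of heart and striated muscle stood at 0.81, -0.54 and 1.14 on the saline arrays and at -0.46 and -0.95 on the room air arrays, as mean log2 level relative to the 5 arrays. Saline replicates 1 and 3 were high and saline replicate 2 lay between the room air arrays. Nppa, which encodes the atrial natriuretic peptide, was the most different of them, at 8.94, 6.34 and 10.02 with saline, against 6.20 and 6.43 in room air. Club cell and airway secretory genes (15 tested) were at 0.41, -0.63 and 0.78 with saline, against 0.24 and -0.80 in room air, so that each group held low and high arrays. No gene of these lists, nor of the 14 of ciliated cells or the 12 of smooth muscle, passed the test. The saline arrays nevertheless lay above both room air arrays for 8 of the 12 smooth muscle genes and below for 1. For the 14 ciliated cell genes these counts were 6 and 0, beside 14.6% and 28.1% of all tested genes. The median differences were 0.50 for smooth muscle and 0.65 for ciliated cells. The part of heart and airway content in the results that follow was not tested.

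Of 13888 genes tested with limma, 100 passed at an adjusted p under 0.05 (0.720%), 16 of them higher after saline (0.115%) and 84 lower (0.605%). At an unadjusted p under 0.05 there were 3007 genes. The smallest adjusted p was 0.010, of Ripor2 and Ccn4. The groups did not overlap at all for many more genes: all 3 saline arrays lay above both room air arrays for 2031 genes (14.6%) and below both for 3902 genes (28.1%), while the median difference of all tested genes was -0.04. The spread of each gene was estimated over all 16 AKR arrays, and the count rests on that choice and on single arrays. No gene passed when the 5 arrays were fitted alone (2543 genes at an unadjusted p under 0.05) or when the fit held the 13 AKR arrays other than those titled 6 weeks of room air (2628 genes). Without saline replicate 1 there were 47, and none passed without saline replicate 3, without room air replicate 1 or without room air replicate 2. The sign of the difference could not change in these fits, because the groups did not overlap for any of the 100 genes. An exact permutation test of 3 against 2 arrays cannot go below p = 0.1.

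**Figure D1:**
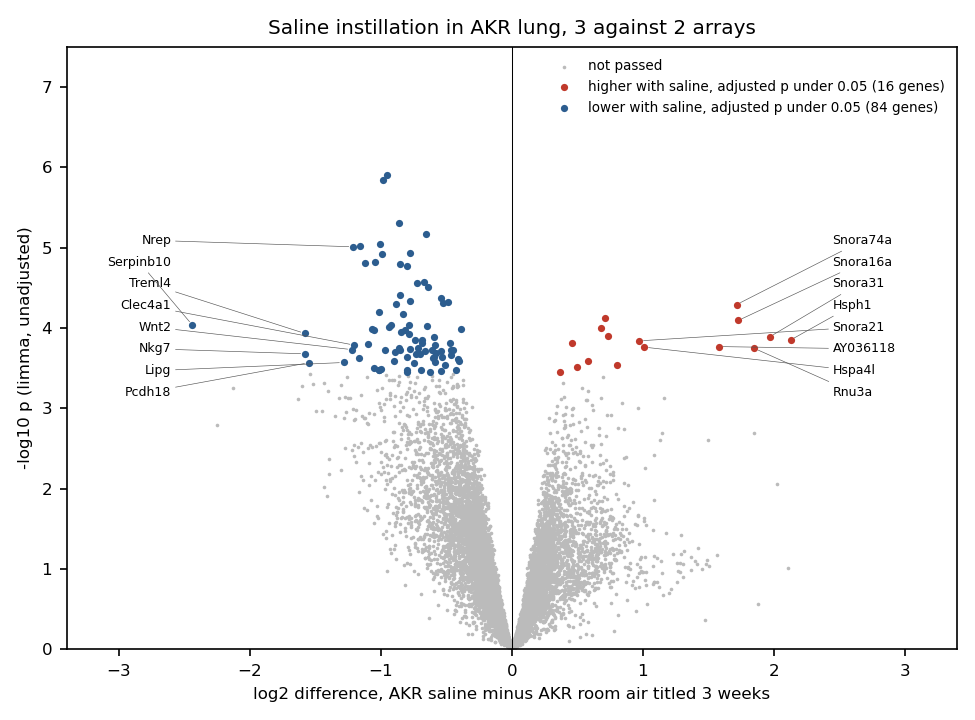
Log2 difference of each of 13888 genes between 3 AKR saline and 2 AKR room air arrays (x axis) against the -log10 of its unadjusted limma p (y axis). The 16 genes that passed above 0 and the 84 that passed below 0 are coloured, and the 8 with the largest difference in each direction are named; Hsph1 lies farthest to the right at 2.13 and Serpinb10 farthest to the left at -2.44.

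Heat shock genes led the increase. Hsph1, the Hsp110 chaperone that acts as exchange factor for Hsp70, was at 9.80, 11.09 and 10.71 on the saline arrays, against 8.64 and 8.17 in room air. All saline arrays were above both room air arrays, and the lowest of the 3 was saline replicate 1. Hsph1 rose by 2.13 ± 0.40 (4.37-fold, limma adjusted p = 0.040), the largest rise among the genes that passed.

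Among the other heat shock genes, Hspa4l, an Hsp110 relative of Hsph1, was at 9.93, 10.27 and 10.68 with saline, against 9.36 and 9.20 in room air. It rose by 1.01 ± 0.20 (limma adjusted p = 0.040). Ahsa1, which stimulates the ATPase of Hsp90, was at 10.15, 10.61 and 10.42 with saline, against 9.73 and 9.64 in room air, and rose by 0.71 ± 0.13 (limma adjusted p = 0.040). For both genes the groups did not overlap, and for both, as for Hsph1, the lowest saline value was that of replicate 1.

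These 3 were the genes that passed as higher among the 17 tested heat shock genes, beside 0.115% of all tested genes. The saline arrays lay above both room air arrays for 13 of the 17, beside 14.6% of all tested genes, and below for none. The median difference of the list was 0.73. The differences of 16 of its genes were above 0, and that of Cryab, a small heat shock protein of muscle and lens, was -0.09. Stip1, which hands client proteins from Hsp70 to Hsp90, was at 10.07, 10.78 and 10.51 with saline, against 9.53 and 9.44 in room air, a difference of 0.97 ± 0.23 that did not pass (limma adjusted p = 0.065). Hspa1a, the inducible Hsp70, varied most: it was at 9.42, 12.02 and 10.32 with saline, against 9.26 and 8.78 in room air (difference 1.57 ± 0.79, limma adjusted p = 0.26). Saline replicate 2 was far above the other arrays for this gene, which has a near-identical copy that the probes may not tell from it. Chaperones that span the cytosol and the mitochondrion had differences of similar size: 0.76 for Hsp90aa1, 0.84 for Dnaja1, 0.73 for Hspd1 and 0.72 for Hspe1, none of which passed; these 4 were chosen after their values were seen.

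The heat shock level of each array, as the mean over the 17 genes relative to the 5 arrays, was -0.10, 0.59 and 0.43 with saline, against -0.41 and -0.52 in room air. Replicates 2 and 3 were well above the room air arrays and replicate 1 closer to them. Without saline replicate 3 the list median was 0.64, with no gene of the list passing, and without saline replicate 2 it was 0.66, also with none. On AKR arrays outside the comparison, those of smoke followed by saline had heat shock levels of -0.15, -0.16 and -0.41. Arrays of air and LPS had -0.28, -0.36 and -0.55, and arrays of smoke and LPS had -0.28 and -0.26. All of these levels were lower than those of the 3 air and saline arrays. The AKR mice titled 6 weeks of room air, with no instillation, had levels of -0.32, 0.30 and 0.26, so that 2 of these 3 arrays reached the range of the instilled mice; they belong to the other set of arrays. Hsph1 alone was at 8.74, 10.09 and 9.82 on those 3 arrays, and its difference from the saline arrays was not free of overlap.

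**Figure D2:**
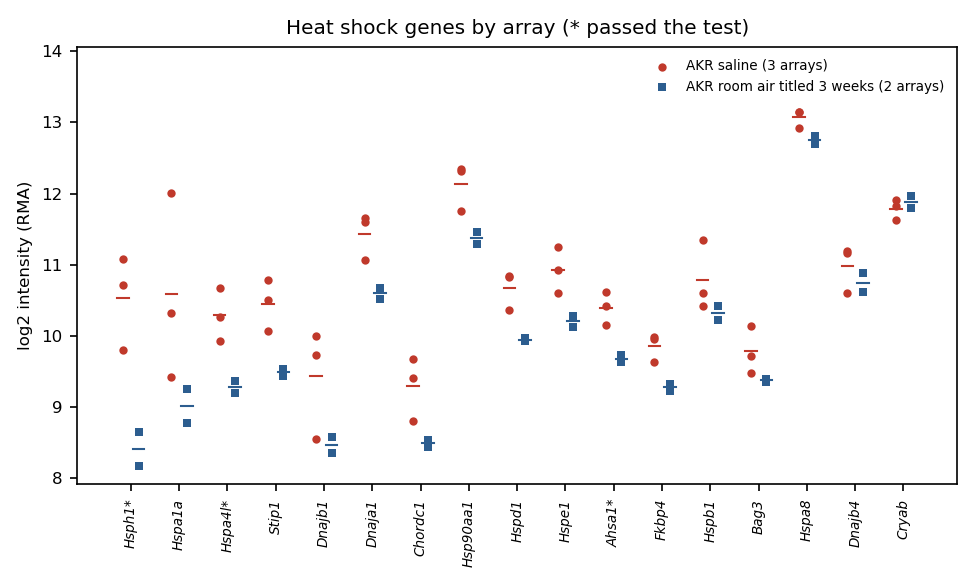
Log2 intensity of 17 heat shock genes (x axis, ordered by difference) on the 3 AKR saline arrays (circles, left) and the 2 AKR room air arrays titled 3 weeks (squares, right), with a line at each mean; an asterisk marks a gene that passed. The saline arrays lie above both room air arrays for 13 genes.

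Hsf1 is known to bind inverted repeats of GAA, which were searched for in the promoters of the heat shock genes. RefSeq windows on GRCm38.p6, from 250 bases before a gene's start to 50 after it, were found for 14 of the 17 genes (20 windows, some of them overlapping). The pair GAANNTTC, searched on both strands, was in 10 of the 20 windows, beside 7.86% of 32851 windows of all genes. By gene, 9 of the 14 had it in a window, a count for which no share over all genes was taken. The longer GAANNTTCNNGAA, which contains the pair, was in 5 of the 20 windows, beside 0.603%. The windows of Hspd1 and Hspe1 overlap on opposite strands and hold the same matched bases, as do both windows of Hsph1, so these counts are not all of separate matches. A match is a run of letters, not a measured binding site. The windows of Hsph1, which rose most, and of Hspe1 and Chordc1, all 3 of which hold the longer run, and that of Ahsa1, which rose and holds neither, are given 5′ to 3′ with matched bases in capitals; Hspe1 and Chordc1 were picked for their promoters.
Hsph1, chr5:149636266-149636565, minus strand: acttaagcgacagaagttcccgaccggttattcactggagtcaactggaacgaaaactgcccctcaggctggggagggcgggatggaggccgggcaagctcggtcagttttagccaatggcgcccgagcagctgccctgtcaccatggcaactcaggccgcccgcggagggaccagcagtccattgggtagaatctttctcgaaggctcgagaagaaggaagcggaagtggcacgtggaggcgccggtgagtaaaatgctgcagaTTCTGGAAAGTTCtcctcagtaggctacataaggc
Hspe1, chr1:55087898-55088197, plus strand: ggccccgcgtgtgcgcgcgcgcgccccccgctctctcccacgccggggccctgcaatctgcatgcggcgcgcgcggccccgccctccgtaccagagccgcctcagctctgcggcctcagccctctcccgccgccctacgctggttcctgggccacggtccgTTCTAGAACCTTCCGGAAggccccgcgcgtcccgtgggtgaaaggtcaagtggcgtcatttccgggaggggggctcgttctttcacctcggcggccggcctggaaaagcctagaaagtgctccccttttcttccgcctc
Chordc1, chr9:18292017-18292316, plus strand: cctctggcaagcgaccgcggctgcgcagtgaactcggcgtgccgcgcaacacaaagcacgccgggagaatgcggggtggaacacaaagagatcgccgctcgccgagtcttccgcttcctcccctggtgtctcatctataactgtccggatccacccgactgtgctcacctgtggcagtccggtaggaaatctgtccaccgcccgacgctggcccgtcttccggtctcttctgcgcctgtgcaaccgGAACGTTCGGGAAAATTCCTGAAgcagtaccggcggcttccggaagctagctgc
Ahsa1, chr12:87266478-87266777, plus strand: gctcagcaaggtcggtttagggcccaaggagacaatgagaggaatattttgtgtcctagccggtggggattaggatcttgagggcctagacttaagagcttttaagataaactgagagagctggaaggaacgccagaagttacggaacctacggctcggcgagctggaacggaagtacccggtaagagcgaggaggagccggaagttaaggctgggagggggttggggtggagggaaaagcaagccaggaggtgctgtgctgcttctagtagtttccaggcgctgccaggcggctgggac

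In the Hsph1 window shown the pair begins 20 bases past the annotated start, and a second annotated start has it at 41. Chordc1, a co-chaperone of Hsp90, was at 8.81, 9.41 and 9.68 with saline, against 8.54 and 8.43 in room air (difference 0.81 ± 0.21, limma adjusted p = 0.074). Hspa4l, which rose, holds neither run in its window.

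Chaperones of the endoplasmic reticulum were less different. None of 19 tested genes of the unfolded protein and integrated stress response passed, although the saline arrays lay above both room air arrays for 12 of them, beside 14.6% of all tested genes, and the median was 0.24. Creld2, a secreted protein that the unfolded protein response induces, differed most, at 9.98, 9.90 and 10.22 with saline, against 9.54 and 9.60 in room air (difference 0.46 ± 0.11, limma adjusted p = 0.067). Hspa5, the Hsp70 of that compartment, differed by 0.39 ± 0.12 (limma adjusted p = 0.11). With the 6-week AKR room air mice as the reference the list median changed sign, to -0.09.

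Among the 16 genes that rose were 4 small nucleolar RNAs of the Snora class and the RNA U3. These RNAs guide chemical modification of ribosomal RNA: those named Snora guide the conversion of uridine to pseudouridine, and U3, encoded by Rnu3a, acts in cutting the ribosomal RNA precursor. Snora31 was at 9.66, 10.09 and 10.32 with saline, against 8.16 and 7.95 in room air, and rose by 1.97 ± 0.37 (limma adjusted p = 0.040). Rnu3a was at 8.06, 8.30 and 8.70 with saline, against 6.70 and 6.29 in room air, and rose by 1.85 ± 0.36 (limma adjusted p = 0.040). For both RNAs the lowest saline array was more than 1 log2 unit above the highest room air array. U3 has several near-identical genes in the mouse, which the probes may not tell apart.

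Snora16a rose by 1.73 ± 0.31, Snora74a by 1.72 ± 0.29 and Snora21 by 0.97 ± 0.19 (limma adjusted p = 0.040, 0.031 and 0.040). Snora16a was at 11.06, 11.52 and 11.72 with saline, against 9.19 and 10.22 in room air. Its room air arrays differed by more from each other than the higher of them did from the lowest saline array. All tested genes named Snora, Snord or Scarna, a list made after the values were seen, came to 46: 4 of them rose, beside 0.115% of all tested genes, and none fell. The saline arrays lay above both room air arrays for 29 and below for 3, beside 14.6% and 28.1% of all tested genes, with a median of 0.60. Of the 46, 2 passed the filter through the saline arrays alone and so had to be higher. Counted with no filter, 31 of 54 lay above and 4 below, beside 15.0% and 21.4% of 19938 genes. The 4 that rose were among the 18 tested Snora genes, of which 15 had saline arrays above both room air arrays. The largest difference that did not pass was that of Snord118, the U8 RNA, at 10.56, 10.50 and 10.39 with saline, against 9.25 and 7.67 in room air (difference 2.02 ± 0.66, limma adjusted p = 0.12), whose room air arrays lay far apart; it too was chosen after its values were seen.

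The snoRNA level differed between arrays within other AKR groups without LPS as well. Over the 46 genes it was 0.22, 0.33 and 0.17 on the saline arrays and -0.23 and -0.49 in room air. Mice with smoke and saline had 0.16, -0.30 and -0.46, and mice titled 6 weeks of room air had -0.14, -0.47 and -0.41. The 3 air and saline arrays were therefore the highest of these 11, with the first smoke and saline array just below the lowest of them.

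Other genes that rose were AY036118, a transcript with no role given here, by 1.58 ± 0.31, Mirlet7e, the precursor gene of the microRNA let-7e, by 0.80 ± 0.16, and Snrnp70, a protein of the U1 particle that recognises splice sites, by 0.73 ± 0.14. Lman2l, a lectin of the secretory pathway, rose by 0.68 ± 0.12 (limma adjusted p = 0.040 to 0.046 for these 4). AY036118 was at 10.996, 10.69 and 10.97 with saline, against 9.54 and 9.07 in room air, but at 10.65, 10.48 and 10.54 in the 6-week AKR mice in room air. Mirlet7e was at 7.63, 7.70 and 7.70 with saline, against 7.02 and 6.73 in room air, and at 7.91, 7.85 and 7.63 on the arrays titled 6 weeks of room air, where its difference from saline turned to -0.12. For AY036118 the lowest saline array was only just above the highest of these further room air arrays, and for Mirlet7e they overlapped.

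Of the 84 genes that fell, which were 0.605% of all tested genes, 5 were on the lists of leukocyte markers: Nkg7, Lef1, Cd28, Fcer2a and Treml4. The largest fall was that of a gene on none of the lists. Serpinb10, a protease inhibitor of blood-forming and myeloid cells, was at 5.09, 5.16 and 4.34 with saline, against 7.07 and 7.54 in room air, and fell by 2.44 ± 0.44 on the log2 scale (limma adjusted p = 0.040). Its saline values lay below the 40th percentile of their arrays, which was 6.18 to 6.25 on the 5 arrays, so the size of the fall rests on dim signal. Among the genes that fell, 4 had no saline array above that level: Serpinb10, Clec4a1, Cd28 and P2ry10b, the last of which is named after its values were seen.

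Nkg7, a granule protein of cytotoxic lymphocytes, was at 7.02, 6.77 and 6.52 with saline, against 8.15 and 8.56 in room air, and fell by 1.58 ± 0.31 (limma adjusted p = 0.040). Treml4, a receptor of monocytes and macrophages, was at 7.34, 7.66 and 6.62 with saline, against 8.76 and 8.82 in room air, and also fell by 1.58 ± 0.29 (limma adjusted p = 0.040). For both genes the highest saline array was at least 1 log2 unit below the lowest room air array, and saline replicate 3 was the lowest.

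Further leukocyte genes among the 12 largest falls were Clec4a1, a C-type lectin of myeloid cells, at -1.21 ± 0.23, and Gimap3, a GTPase of lymphocytes, at -1.17 ± 0.24. Slamf6, a receptor of lymphocytes, fell by 1.12 ± 0.17, with 7.19, 6.99 and 6.98 on the saline arrays, against 8.09 and 8.25 in room air (limma adjusted p = 0.018). Fcer2a, the low-affinity IgE receptor CD23 of B cells, fell by 1.10 ± 0.21, with 6.73, 5.96 and 6.85 on the saline arrays, against 7.60 and 7.61 in room air (limma adjusted p = 0.040). Slamf6 was even within each group, whereas Fcer2a was lowest on saline replicate 2.

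More genes of leukocyte movement and signalling fell, which are named here after their values were seen. Cxcr4, the receptor of the retention chemokine Cxcl12, fell by 1.04 ± 0.16, Selplg, the selectin ligand PSGL-1, by 0.99 ± 0.15, and Ripor2, known from T cells and neutrophils, by 0.95 ± 0.12 (limma adjusted p = 0.018, 0.018 and 0.010). Selplg was at 8.60, 8.60 and 8.39 with saline, against 9.51 and 9.53 in room air, and Ripor2 at 7.46, 7.59 and 7.38, against 8.35 and 8.51. S1pr5, a sphingosine 1-phosphate receptor through which natural killer cells leave tissues, fell by 0.80 ± 0.12, and Rac2, a small GTPase of blood cells, by 1.05 ± 0.19 (limma adjusted p = 0.018 and 0.040). In all of these but Cxcr4 the spread within a group was small beside the distance between groups. Cxcr4 was at 9.16, 9.23 and 8.77 with saline, against 9.97 and 10.23 in room air.

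Many natural killer cell markers were dim. Of 13 on the array, 7 passed the filter on dim genes, and 3 of these 7 passed it through the room air arrays alone and so had to be lower with saline. Counted with no filter, the saline arrays lay below both room air arrays for 10 of the 13 and above for none, beside 21.4% and 15.0% of 19938 genes, with a median of -0.72. Only Nkg7 of the 7 passed the test as lower, beside 0.605% of all tested genes. Gzma, the granule protease granzyme A, was at 6.63, 6.52 and 5.69 with saline, against 7.47 and 8.30 in room air (difference -1.60 ± 0.35, limma adjusted p = 0.055). Klrd1, the receptor chain CD94, differed by -1.22 ± 0.29, and Ncr1, the activating receptor NKp46, by -1.20 ± 0.33 (limma adjusted p = 0.065 and 0.087).

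T cell markers showed 2 genes that fell among 12 tested, Lef1 and Cd28, beside 0.605% of all tested genes. Lef1, a transcription factor of naive T cells, was at 7.05, 7.15 and 6.95 with saline, against 7.997 and 7.81 in room air, and fell by 0.85 ± 0.13 (limma adjusted p = 0.018). Cd28, the co-stimulatory receptor, fell by 0.82 ± 0.15 (limma adjusted p = 0.040). Cd3g, a chain of the T cell receptor complex, was at 7.09, 6.71 and 7.06 with saline, against 7.82 and 8.29 in room air (difference -1.10 ± 0.24, limma adjusted p = 0.051). Cd28 passed the filter on dim genes through the room air arrays alone and so had to be lower. Counted with no filter, the saline arrays lay below both room air arrays for 12 of 13, beside 21.4% of 19938 genes, with a median of -0.49.

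Of 13 B cell markers Fcer2a was the 1 that passed as lower, beside 0.605% of all tested genes. All 13 on the array were tested, 1 of them through the room air arrays alone, and 12 had saline arrays below both room air arrays, beside 21.4% of 19938 genes with no filter. Their median was -0.74. Cd79b, a chain of the B cell receptor complex, was at 8.34, 8.11 and 8.45 with saline, against 9.16 and 9.44 in room air (difference -1.002 ± 0.28, limma adjusted p = 0.092). Ms4a1, which encodes CD20, differed by -0.96 ± 0.43 and Cd79a by -0.93 ± 0.45 (limma adjusted p = 0.22 and 0.24). Genes of MHC class II and antigen presentation had saline arrays below both room air arrays for all 12 tested, beside 28.1% of all tested genes, with a median of -0.41 and none passing. Cd74, the invariant chain, was at 11.76, 11.62 and 11.50 with saline, against 12.10 and 12.09 in room air (difference -0.47 ± 0.14, limma adjusted p = 0.097).

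**Figure D3:**
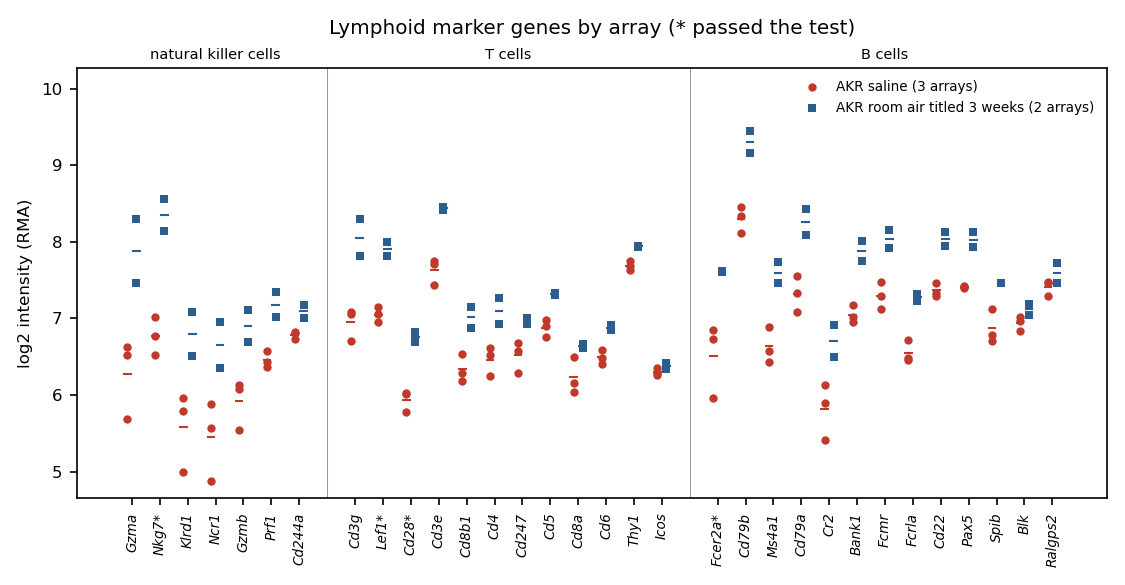
Log2 intensity of the tested marker genes of natural killer cells (7), T cells (12) and B cells (13) on the 3 AKR saline arrays (circles, left) and the 2 AKR room air arrays titled 3 weeks (squares, right), with a line at each mean; an asterisk marks a gene that passed. Of the 32 genes, 5 entered through the room air arrays alone and so had to be lower with saline.

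Lymphoid levels were taken over all 13 markers of each list on the array, with no filter. Relative to the 5 arrays, T cell markers stood at -0.14, -0.26 and -0.29 with saline, against 0.34 and 0.34 in room air. B cell markers stood at -0.28, -0.45 and -0.15, against 0.34 and 0.53, and natural killer cell markers at -0.17, -0.19 and -0.52, against 0.29 and 0.59. In none of the 3 lists did the groups overlap, and saline replicate 3 was the lowest in the natural killer list. Without that replicate the medians of the differences were -0.45 for T cells, -0.83 for B cells and -0.67 for natural killer cells, with no gene passing.

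The other AKR arrays without endotoxin fell on the same side by treatment. Mice with smoke and saline had T cell levels of -0.31, -0.33 and -0.22 and B cell levels of -0.82, -0.61 and -0.52, all below both room air arrays. Mice titled 6 weeks of room air with no instillation had T cell levels of 0.39, 0.52 and 0.48 and B cell levels of 0.37, 0.58 and 0.33, close to the room air arrays titled 3 weeks. The natural killer levels were -0.51, -0.42 and -0.25 with smoke and saline and 0.76, 0.72 and 0.73 on the arrays titled 6 weeks. Levels of the arrays titled 6 weeks are set here across the 2 sets of arrays, whose medians differ.

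**Figure D4:**
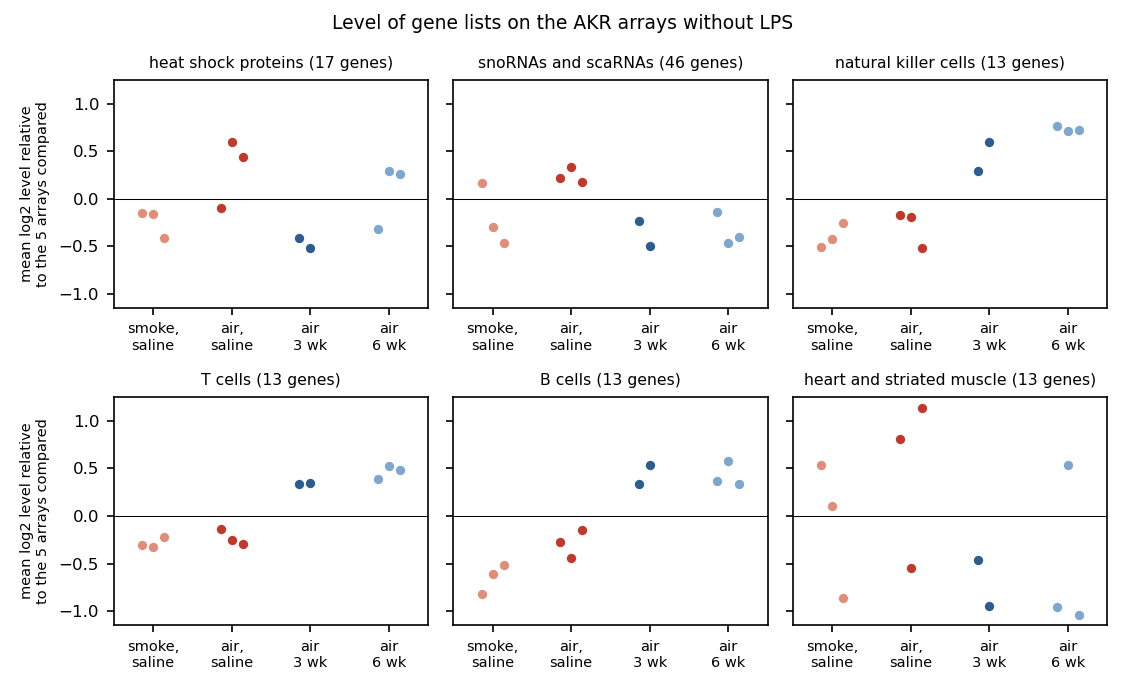
Mean log2 level of 6 gene lists relative to the 5 arrays compared (y axis), 1 point per AKR array without LPS, for smoke and saline (3 arrays), air and saline (3), room air titled 3 weeks (2) and room air titled 6 weeks (3). The lymphoid lists, drawn over all 13 markers with no filter, are below 0 on all 6 saline arrays and above 0 on all 5 arrays without instillation, whereas heat shock genes and heart muscle genes are mixed.

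Among other leukocytes, 1 of 14 markers of interstitial macrophages and monocytes fell, Treml4, beside 0.605% of all tested genes. The list median was -0.30. Ccr7, the homing receptor of migrating dendritic cells and naive T cells, was at 8.02, 8.01 and 7.60 with saline, against 8.80 and 8.79 in room air (difference -0.92 ± 0.20, limma adjusted p = 0.053). No gene of the dendritic cell list (12 tested) or of the alveolar macrophage list (14 tested) passed. Of 16 neutrophil markers on the array, 8 passed the filter and none passed the test, with a median of -0.35 and differences from -0.73 to 1.27. Their mean level on each array was -0.09, -0.03 and 0.00 with saline, against 0.05 and 0.06 in room air, whereas AKR mice that received LPS had levels from 2.53 to 3.05.

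Some genes of mesenchymal cells were among those that fell. Pcdh18, a protocadherin, was at 8.45, 8.19 and 7.65 with saline, against 9.62 and 9.67 in room air, and fell by 1.55 ± 0.32 (limma adjusted p = 0.044). Wnt2, a growth factor that lung fibroblasts make, was at 7.35, 7.47 and 6.92 with saline, against 8.31 and 8.63 in room air, and fell by 1.22 ± 0.24 (limma adjusted p = 0.040). Pdgfrb, the PDGF receptor of pericytes and fibroblasts, was at 10.02, 9.89 and 9.52 with saline, against 10.93 and 10.83 in room air, and fell by 1.07 ± 0.20 (limma adjusted p = 0.040). For all 3 genes the groups did not overlap and saline replicate 3 was the lowest.

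Wnt2 and Pdgfrb were the 2 that fell among 15 tested markers of fibroblasts and pericytes, beside 0.605% of all tested genes. The list median was -0.13. The saline arrays lay above both room air arrays for 3 of its genes and below for 7, beside 14.6% and 28.1% of all tested genes. Npnt, the matrix protein nephronectin, was at 11.34, 11.52 and 10.53 with saline, against 12.45 and 12.51 in room air (difference -1.35 ± 0.33, limma adjusted p = 0.067). Nrep, known from regenerating neurons and from myofibroblasts, fell by 1.21 ± 0.18, with 9.36, 9.45 and 9.01 on the saline arrays, against 10.43 and 10.54 in room air (limma adjusted p = 0.018). Cdkn2c, the inhibitor p18 of cell cycle kinases, was at 7.86, 7.89 and 7.77 with saline, against 8.88 and 9.13 in room air, and fell by 1.16 ± 0.17 (limma adjusted p = 0.018). Both were about 1 log2 unit lower on every saline array.

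Matrix and signalling genes named after their values were seen fell by less and with little spread. Ccn4, a matricellular protein of the Wnt pathway, was at 6.59, 6.61 and 6.43 with saline, against 7.51 and 7.54 in room air, and fell by 0.98 ± 0.12 (limma adjusted p = 0.010). Mxra8, an adhesion protein of mesenchymal cells, was at 10.98, 10.98 and 10.90 with saline, against 11.66 and 11.55 in room air, and fell by 0.65 ± 0.09 (limma adjusted p = 0.018). Col6a3, a chain of collagen VI, fell by 0.47 ± 0.09, and Tgfbr2, a receptor of TGF-beta, by 0.51 ± 0.10 (limma adjusted p = 0.040 and 0.046). In the list of extracellular matrix and assembly none of 18 tested genes passed, and its members differed in both directions: Fn1, fibronectin, by -0.86 ± 0.19, and Eln, elastin, by 0.86 ± 0.22 (limma adjusted p = 0.054 and 0.075).

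Among endothelial genes, Lipg, the endothelial lipase, was at 7.86, 8.32 and 7.73 with saline, against 9.25 and 9.26 in room air, and fell by 1.29 ± 0.26 (limma adjusted p = 0.044). None of the 18 endothelial markers passed. All 18 differences were below 0, and 14 genes had saline arrays below both room air arrays, beside 28.1% of all tested genes. Their level was -0.08, 0.23 and -0.80 with saline, against 0.29 and 0.35 in room air, so saline replicate 2 was close to room air replicate 1 and saline replicate 3 far below. The list median was -0.57 with all arrays and -0.30 without saline replicate 3. Surfactant and alveolar lipid genes (18 tested, none passing) had saline arrays below both room air arrays for 14, beside 28.1% of all tested genes, with a median of -0.28. The same replicate was lowest there too: Lamp3, a lysosomal protein of type 2 cells, was at 10.88, 10.84 and 9.86 with saline, against 11.25 and 11.69 in room air (difference -0.94 ± 0.34, limma adjusted p = 0.15).

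Immediate early genes, which stimulated cells switch on within minutes and which respond to handling of tissue, were not raised. None of 18 tested passed, the median was -0.43, and 17 had a difference below 0. Nr4a1, a nuclear receptor of this class, was at 8.58, 9.96 and 9.35 with saline, against 10.46 and 11.17 in room air (difference -1.52 ± 0.33, limma adjusted p = 0.055). Ccn1, a matricellular protein, differed by -1.15 ± 0.32, and Egr1, a zinc finger factor, by -1.03 ± 0.38 (limma adjusted p = 0.086 and 0.16). The level of the list on saline replicate 2, 0.23, lay within the room air range of 0.15 to 0.50, while replicates 1 and 3 were both at -0.44.

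Signs of an inflammatory response were few. None of 16 tested cytokine and chemokine genes passed, and their median was -0.03. The level of the list was -0.16, -0.17 and 0.08 with saline and 0.07 and 0.19 with no instillation. On the 3 AKR arrays of air and LPS it was 3.16 to 3.94. Ccl5, a chemokine that T and natural killer cells make, differed most, at 7.78, 7.89 and 7.95 with saline, against 9.02 and 9.34 in room air (difference -1.31 ± 0.29, limma adjusted p = 0.055). Interferon-stimulated genes (16 tested), interferon gamma-induced genes (12) and NF-kB subunits and feedback inhibitors (15) had medians of -0.24, -0.39 and -0.14, with none passing.

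Acute-phase proteins were high on 1 of the 3 air and saline arrays. Saa3, serum amyloid A, was at 6.22, 6.38 and 8.95 with saline, against 6.36 and 6.02 in room air, and Orm2, an acid glycoprotein, at 6.75, 6.04 and 9.82, against 6.94 and 5.82. Replicates 1 and 2 lay within or near the room air range for both genes, and replicate 3 was more than 2 log2 units above every other array. The level of the 11 tested genes was 1.03 on that replicate and -0.11 and -0.36 on the other saline arrays, and -0.16 and -0.40 in room air. None passed. Glucocorticoid-induced genes (16 tested), genes of the circadian clock (3 activators and 13 repressors and outputs) and ribosomal proteins (14) had no gene that passed either, with medians of -0.10, 0.34, -0.07 and -0.03. Of 10 p53 targets 1 fell, beside 0.605% of all tested genes. It was Plk2, a polo-like kinase, which fell by 0.92 ± 0.17 (limma adjusted p = 0.040).

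The same treatment in C57 lung allowed an interaction test between the AKR and C57 comparisons. The C57 arrays compared were 3 with air and saline, titled 3 weeks, against 3 in room air titled 6 weeks; no C57 arrays in room air titled 3 weeks were used here. Titled exposure is thus confounded with instillation in C57, and the strains lie in different sets of arrays, so the test sets one difference within a set against another. Of 14433 genes in the 11 arrays, 689 passed in the interaction of strain and saline (4.77%): the difference was higher in AKR for 106 (0.734%) and lower in AKR for 583 (4.04%). At an unadjusted p under 0.05 there were 3334. The count rested on single arrays: 134 passed without room air replicate 2 of AKR, 415 without its replicate 1 and 1136 without saline replicate 2 of AKR. It was 1561, 318 and 357 without room air replicates 1, 2 and 3 of C57, and 306 and 322 without saline replicates 2 and 3 of C57.

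Heat shock genes differed between the AKR and C57 comparisons. Hsph1 was at 7.98, 8.24 and 7.94 on the C57 saline arrays, against 8.91, 9.21 and 9.52 on the C57 room air arrays. In C57, saline arrays were thus all below room air arrays, whereas in AKR they were all above. The difference was 2.13 ± 0.31 in AKR and -1.16 ± 0.28 in C57, and the interaction was 3.29 ± 0.42 (limma adjusted p = 0.0026), the largest of any gene that passed above 0. Of the 17 heat shock genes, 10 passed as higher in AKR and none as lower, beside 0.734% and 4.04% of all genes. The median differences of the list were 0.73 in AKR and -0.34 in C57. In C57 the saline arrays lay below all room air arrays for 9 of the 17, beside 8.02% of all genes.

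Lymphoid genes differed the other way. Of 13 B cell markers, 12 passed as lower in AKR, beside 4.04% of all genes. The same share applies to the other counts passed as lower in this paragraph. The B cell median difference was -0.74 in AKR and 0.75 in C57. In C57 the saline arrays lay above all room air arrays for 12 of the 13, beside 7.93% of all genes. Of 13 T cell markers tested on these arrays, 9 passed as lower in AKR (medians -0.49 in AKR and 0.29 in C57), and of 12 natural killer cell markers 7 (medians -0.74 and 0.54). The medians of these lists thus had opposite signs in the AKR and C57 comparisons. Those comparisons differ in the titled exposure of the room air mice as well as in strain. For MHC class II and antigen presentation 5 of 12 passed as lower in AKR, and for neutrophil markers 3 of 11.

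Among single genes, Serpinb10 had the largest interaction, -3.92 ± 0.45 (limma adjusted p = 0.0018): it was at 8.39, 8.41 and 8.88 on the C57 saline arrays, against 7.75, 6.56 and 6.93 in C57 room air. The C57 difference was 1.48 ± 0.30, opposite in sign to that in AKR. Ly6a2, of the Ly6 family of surface proteins, had -3.38 ± 0.40, Clec4a3, a lectin of myeloid cells, -2.61 ± 0.38, and Adgre4, an adhesion receptor of monocytes, -2.54 ± 0.26 (limma adjusted p = 0.0021, 0.0040 and 0.00086). In each of these 4 genes the C57 saline arrays lay above all C57 room air arrays. Glp1r, the receptor of glucagon-like peptide 1, and Vsnl1, a calcium sensor, had interactions of -2.90 ± 0.52 and -2.62 ± 0.48 (limma adjusted p = 0.011 and 0.012), with C57 arrays that overlapped between the groups.

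Of the snoRNAs, Snora31 was at 7.29, 6.99 and 7.53 with saline, against 7.19, 7.41 and 7.54 in room air in C57, a difference of -0.11 ± 0.18, and its interaction was 2.08 ± 0.27 (limma adjusted p = 0.0027). Rnu3a differed by 0.01 ± 0.20 in C57, with an interaction of 1.85 ± 0.29 (limma adjusted p = 0.0062). Over the 46 snoRNA and scaRNA genes 7 passed as higher in AKR and 1 as lower, beside 0.734% and 4.04% of all genes, with medians of 0.60 in AKR and 0.03 in C57. Nr4a3, a nuclear receptor of the immediate early class, differed by 0.51 ± 0.22 in AKR and by -1.60 ± 0.19 in C57, with an interaction of 2.11 ± 0.29 (limma adjusted p = 0.0034).

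**Figure D5:**
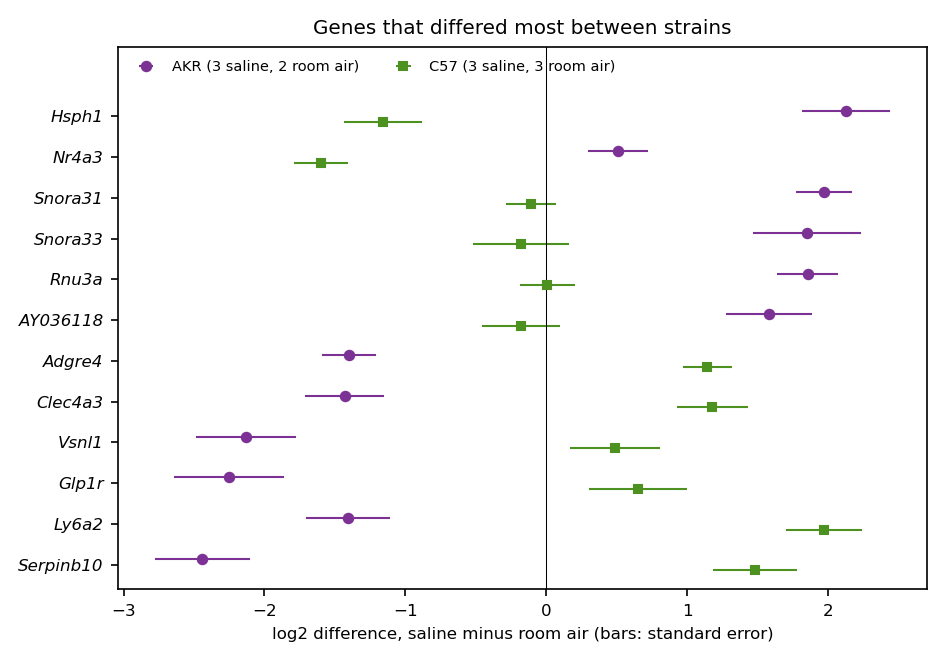
Log2 difference between saline and room air in AKR (circles, above) and C57 (squares, below) with its standard error, for the 6 genes with the largest interaction in each direction among those that passed. Hsph1 is above 0 in AKR and below 0 in C57, Snora31, Snora33, Rnu3a and AY036118 are near 0 in C57, and Serpinb10, Ly6a2, Clec4a3 and Adgre4 are below 0 in AKR and above 0 in C57.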

How the data were processed

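Lung RNA was measured on 31 Affymetrix Gene ST arrays, 5 of which are compared here. The authors deposited log2 intensities per probe set, summarised with RMA (robust multi-array average), per the submitters' processing notes; its version is not given in the sources used here. The table holds 35556 probe sets, of which 21789 carried 1 gene symbol, 1621 several and 12146 none. For a gene with several probe sets the one with the highest mean was used, leaving 19938 genes. Genes above the 40th percentile of at least 2 of the 5 arrays were tested. limma 3.58.1 (R 4.3.3) was fitted over all 16 AKR arrays (6 groups, 10 residual degrees of freedom), with Benjamini-Hochberg adjustment and a threshold of 0.05. The strain interaction used 11 arrays. The p-values measure only the spread between these samples, and the number of arrays limits the precision.

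Named genes are the 12 largest differences in each direction among those that passed, the 4 largest of each gene list and the 6 largest interactions in each direction; others are said to be chosen after their values were seen. The members and lists were chosen with earlier results of these data known. Alternatives changed the arrays fitted, filter, scaling, probe set rule, variance model and reference. Sequences are from RefSeq. Figures were drawn with matplotlib 3.10.9.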

Additional observations from a re-analysis of the deposited data

Results flagged for a closer look

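The difference between saline and room air departed between the strains, by the interaction test, for the 12 genes with the largest such departures. As the AKR difference minus the C57 difference on the log2 scale, it was 3.29 for Hsph1, 2.11 for Nr4a3, 2.08 for Snora31, 2.03 for Snora33, 1.85 for Rnu3a and 1.76 for AY036118. It was -2.54 for Adgre4, -2.61 for Clec4a3, -2.62 for Vsnl1, -2.90 for Glp1r, -3.38 for Ly6a2 and -3.92 for Serpinb10. Hsph1, Nr4a3, Snora31, Serpinb10, Ly6a2, Clec4a3 and Adgre4 passed in all 16 alternative fits, Rnu3a and Glp1r in 15 and Vsnl1 in 14. AY036118 passed in 7 and Snora33 in 5. The strains lie in different sets of arrays, and in C57 titled exposure is confounded with instillation. The part of either in these values was not tested.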

How the results depend on the processing

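Against 100 genes (16 higher, 84 lower), no gene passed with 13 AKR arrays or with the 5 arrays alone, and 337 (43 higher, 294 lower) passed with the 11 AKR arrays without LPS. With no filter 43 passed (7 higher, 36 lower), with a 60th percentile filter 179 (155 lower) and with array medians subtracted 195 (177 lower). Array weights gave 4045 (1423 higher, 2622 lower), from an estimate that did not converge, and the AKR arrays titled 6 weeks as reference, which cross the sets of arrays, gave 4690 (353 higher, 4337 lower). Leaving out 1 array gave 0 to 79 genes, 0 to 14 higher and 0 to 74 lower. With the 6-week reference 2 of the 100 turned sign, Mirlet7e to -0.12 and Cep350, named after its values were seen, to -0.14. A replicate block left 6 genes, none higher and 6 lower. Deviations of same-numbered arrays from their group means correlated at 0.041 and 0.377 over only 2 pairs. With 2 room air arrays these deviations mirror each other, and opposite-numbered arrays gave -0.041 and -0.377. The numbers are thus not shown to pair the arrays. For the strain interaction, against 689 (106 higher in AKR, 583 lower), all 31 arrays gave 229 (47 and 182) and a replicate block 420 (58 and 362). Leaving out 1 array gave 134 to 1561, 12 to 397 higher and 122 to 1164 lower. Among list medians 773 moved by less than the spread and 90 by more. The cause of these changes was not tested.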
